A study of Mus musculus with 3 samples.

Results

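The 10 genes described here encode J-proteins of the endoplasmic reticulum (ER), components of ER-associated degradation (ERAD) and a subunit of the Sec61 channel (Sec61b). They are Dnajb9, Dnajb11, Dnajc3, Herpud1, Sel1l, Syvn1, Edem1, Derl1, Derl2 and Sec61b, and they were chosen by name for what their proteins do, with earlier results of these data known. The rule itself uses no measured value. All of them are protein-coding, among 21951 protein-coding genes and 55450 genes in all in GENCODE M21. The data are ChIP-seq peak lists from mouse brain cortices at E13.5, with 1 library for NF-Y-ChIP (antibody against the NF-YC subunit) and 1 for H3K4me3-ChIP. A library of input chromatin was sequenced too and has no peak list here. The NF-Y-ChIP list held 733 peaks and the H3K4me3-ChIP list 18816. The lists carry no antibody name and were assigned by the statistic that each score follows, since the methods set the threshold of NF-Y-ChIP on the p-value and that of H3K4me3-ChIP on the q-value. The labels give neither strain, genotype nor the number of embryos behind a library, and bulk cortex at this age holds progenitors and neurons, whose peaks cannot be told apart. Each antibody has a single library, hence the values are given without replicate error and without any test.

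NF-Y is a trimeric transcription factor that binds the CCAAT box, usually close upstream of transcription start sites. H3K4me3 is a histone mark of active promoters. J-proteins of the ER deliver unfolded proteins to the chaperone BiP and stimulate its ATPase activity. In ERAD, misfolded proteins are recognised in the ER, moved back to the cytosol, ubiquitinated and degraded by the proteasome. Many genes of both groups are induced when unfolded proteins accumulate in the ER, and the best known promoter element of that response, the ER stress response element (ERSE), joins a CCAAT box to a binding site of ATF6 and XBP1.

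The tissue label was checked first. The cortical genes Emx1, Emx2, Sox2, Pax6, Eomes, Neurod2, Tbr1 and Tubb3 each carried H3K4me3 within 1 kb of a transcript start. Of 9 genes of other tissues (Alb, Afp, Ins1, Myod1, Myh6, Gata1, Ptprc, Cdx2 and Krt5), 0 did.

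The promoter sequences that carry the CCAAT boxes are shown first, because the results turn on them. All are from the GRCm38 reference, on the strand of the gene, with every CCAAT box in capitals (CCAAT, or ATTGG where the box lies on the other strand). The CCACG of an ERSE or ERSE-II is also in capitals. Positions count from the start of the principal transcript, which is 0, and are negative upstream. For the J-protein genes Dnajb11 and Dnajc3, the boxes of the first stretches shown lay upstream of the start. The Dnajb11 box at −246 is not shown. It lies on the far side of the opposite-strand start of Tbccd1 at −197. A further box of Dnajb11, part of an ERSE-II, lay between another annotated start of the gene and the principal one, and the box of Dnajb9 lay between the 2 annotated starts of that gene.
Dnajb11, chr16:22857720-22857823, plus strand: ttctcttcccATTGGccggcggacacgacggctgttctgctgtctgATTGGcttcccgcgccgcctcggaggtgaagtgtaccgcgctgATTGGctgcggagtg
Dnajb11, chr16:22857842-22857866, plus strand: cccggcggcgATTGGcCCACGcctg
Dnajc3, chr14:118937817-118937901, plus strand: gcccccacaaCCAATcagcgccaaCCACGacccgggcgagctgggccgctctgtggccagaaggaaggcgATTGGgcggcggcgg
Dnajb9, chr12:44210119-44210143, minus strand: ccggcgggagCCAATggggaagcgt

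The next sequences are from genes of the membrane complex that ubiquitinates ERAD substrates. Herpud1 holds an ERSE-II, Sel1l holds 4 boxes, and Syvn1 holds an ERSE but had no NF-Y-ChIP peak.
Herpud1, chr8:94386367-94386425, plus strand: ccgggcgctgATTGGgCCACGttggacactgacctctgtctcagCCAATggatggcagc
Sel1l, chr12:91849172-91849358, minus strand: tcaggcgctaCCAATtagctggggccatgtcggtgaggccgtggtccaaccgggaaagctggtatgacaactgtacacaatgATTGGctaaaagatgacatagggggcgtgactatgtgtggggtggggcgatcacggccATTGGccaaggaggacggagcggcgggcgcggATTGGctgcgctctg
Syvn1, chr19:6046497-6046560, plus strand: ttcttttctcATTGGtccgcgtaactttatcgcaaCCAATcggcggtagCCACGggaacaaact

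For Derl2, the 25 bases around the box nearest the NF-Y-ChIP summit are shown with the pair of boxes closest to the start. For Edem1 and Derl1, which had no NF-Y-ChIP peak, the 25 bases around the only box in the promoter window are given for comparison.
Derl2, chr11:71019546-71019570, minus strand: cgcactcctgATTGGctagccgtgg
Derl2, chr11:71019319-71019372, minus strand: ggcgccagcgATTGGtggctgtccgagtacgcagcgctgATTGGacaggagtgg
Edem1, chr6:108828525-108828549, plus strand: ccggtggaggCCAATccccggcggc
Derl1, chr15:57892648-57892672, minus strand: tagcttccccATTGGtttgcaagac

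NF-Y-ChIP peaks were present at 6 of the 10 genes. These were the 3 J-protein genes Dnajb9, Dnajb11 and Dnajc3, the ubiquitin ligase partners Herpud1 and Sel1l, and the derlin gene Derl2. Syvn1, Edem1, Derl1 and Sec61b had none. A gene was counted when a peak lay inside it or within 5 kb upstream, the rule of the study's methods, and by this rule 3.69% of all protein-coding genes had an NF-Y-ChIP peak. Among the protein-coding genes that also had an H3K4me3-ChIP peak by this rule, the share was 5.60%. With the stricter demand of a summit within 1 kb of a start, which the same 6 genes met, the shares were 3.17% of all protein-coding genes and 5.03% of those with H3K4me3 within 1 kb. The share of 60.0% for the 10 genes has a Wilson 95% confidence interval of 31.3 to 83.2%, which covers only the sampling of genes and not that they were chosen with results of these data known. Each of the 6 genes had 1 NF-Y-ChIP peak, and each of these peaks overlapped an H3K4me3-ChIP peak, as did 645 of all 733 NF-Y-ChIP peaks (88.0%).

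H3K4me3-ChIP peaks were present at all 10 genes, against 65.4% of all protein-coding genes by the same rule. Their fold enrichments, the summit signal as a ratio to the local background, ranged from 39.9 at Derl1 to 87.4 at Dnajc3. All 10 exceeded the median of 39.9 over the 13767 protein-coding genes that carried H3K4me3 within 1 kb of a start (62.7% of all, called marked genes below), and Derl1 was level with it at the precision printed. The median of the 6 genes with an NF-Y-ChIP peak was 69.7 (range 46.5 to 87.4), and that of the 4 genes without was 52.1 (range 39.9 to 62.7). These ranges overlapped. Over all marked protein-coding genes, the medians were 46.7 for those with NF-Y-ChIP this close to a start and 39.4 for those without. H3K4me3 was thus higher at the genes with NF-Y-ChIP in the whole list, and its part in the count of 6 genes was not tested. Of the 6874 protein-coding genes with an H3K4me3-ChIP fold enrichment at least as high as that of Derl1, 6.71% had NF-Y-ChIP within that distance. The map of peaks by gene shows where the peaks lay.

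**Figure D1:**
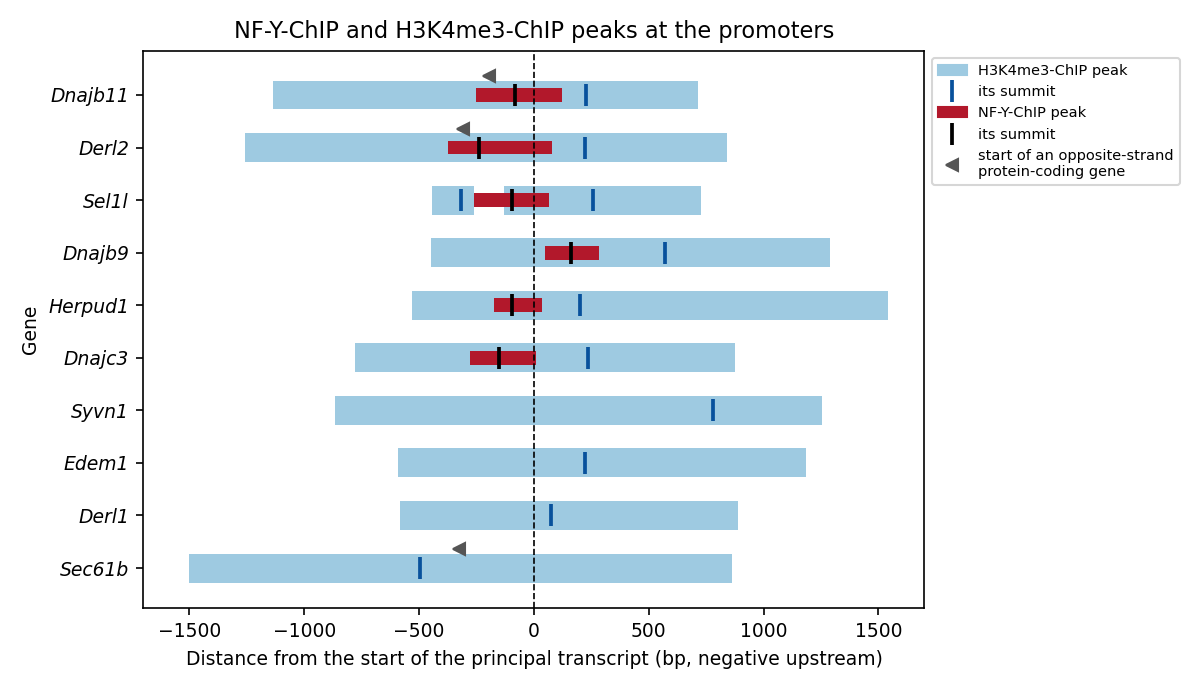
Peaks at the 10 genes, with distance from the start of the principal transcript on the x axis (bp) and 1 gene per row, ordered by NF-Y-ChIP fold enrichment. Red bars are NF-Y-ChIP peaks (6 genes) and blue bars H3K4me3-ChIP peaks (10 genes), vertical ticks are summits, and grey triangles mark starts of protein-coding genes on the opposite strand; the NF-Y-ChIP peaks lie within an H3K4me3-ChIP peak, except at Sel1l where the peak covers a gap, and their summits are upstream of the strongest H3K4me3-ChIP summit.

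Dnajb11 encodes ERdj3, a soluble J-protein of the ER lumen that binds unfolded proteins directly. The gene spans chr16:22857845-22879634, plus strand. Its NF-Y-ChIP peak, chr16:22857614-22857987, had a fold enrichment of 16.2 and ranked 39 of 733, the highest rank among the 10 genes. The summit lay at −82 from the principal start and at −61 from the nearest start of the gene. The promoter window, from 250 bases before the start to the 50 bases from it on, held 5 CCAAT boxes, at −246, −136, −100, −57 and −14. All 5 read ATTGG on the strand of the gene. The last box was part of the ERSE-II shown above. H3K4me3-ChIP enrichment was 80.2-fold, which ranked 113 of 13767 marked genes. Tbccd1 starts at −197 on the opposite strand, and the start nearest to the summit was that of Dnajb11.

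Dnajc3 encodes P58IPK, a J-protein of the ER lumen first described as an inhibitor of the kinase PKR. In the genome it spans chr14:118937976-118981697, plus strand. Its values in the 2 lists stood far apart. H3K4me3-ChIP enrichment was 87.4-fold, which ranked 16 of 13767 marked genes and 15 among all 18816 peaks. The NF-Y-ChIP peak, chr14:118937697-118937987, had a fold enrichment of 3.94 and ranked 690 of 733, the lowest of the 6. Its −log10 values were 6.17 on the p scale and 1.79 on the q scale, above the limit of the NF-Y-ChIP list. The summit, at −151, was 4 bp from the centre of the CCAAT box at −149. That box opens the ERSE, and a second box lay at −89. No other annotated gene starts within 1 kb.

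Dnajb9 encodes ERdj4, a J-protein that also takes part in ERAD. The gene spans chr12:44205559-44210326, minus strand. Its NF-Y-ChIP peak, chr12:44210042-44210276, had a fold enrichment of 8.75 and ranked 175 of 733. It was the only one of the 6 whose summit lay downstream of the principal start, at 162 bp, in the untranslated part of exon 1. GENCODE M21 gives a second start 258 bp downstream of the principal one, which is also the start in the RefSeq promoter table. The summit was 96 bp upstream of that second start. The promoter window at the principal start held 0 CCAAT boxes, and the window at the second start held 1, which began 65 bp upstream of it and was centred 33 bp from the summit. H3K4me3-ChIP enrichment was 46.5-fold, with the summit at 571 bp. The miRNA gene Mir5627 starts 13 bp downstream of the principal start on the opposite strand.

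Herpud1 encodes a ubiquitin-like membrane protein of the ER that assembles ERAD complexes. In the genome it spans chr8:94386438-94395377, plus strand. Its NF-Y-ChIP peak, chr8:94386262-94386475, had a fold enrichment of 6.81 and ranked 346 of 733, close to the median of 6.75 over the whole list. The summit was 96 bp upstream of the start. Boxes lay at −61, in the ERSE-II, and at −27, on opposite strands and 34 bp apart. The box at −27 was followed after 9 bases by CCAC without the G of the ERSE. The H3K4me3-ChIP fold enrichment was 63.2. An antisense transcript, Gm15890, starts 534 bp downstream.

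Sel1l encodes the adaptor of the ubiquitin ligase that Syvn1 encodes. The gene spans chr12:91806043-91849157, minus strand. Its NF-Y-ChIP peak, chr12:91849090-91849416, had a fold enrichment of 9.73 and ranked 135 of 733, with the summit 95 bp upstream of the start. Boxes lay at −191, −119, −61 and −29, and all 4 were inside the peak. Sel1l was the only one of the 10 genes with more than 1 H3K4me3-ChIP peak. The main peak, with a fold enrichment of 46.6, ran from −132 to 727. A weak upstream peak of 5.13-fold ran from −445 to −263. The NF-Y-ChIP peak covered the gap between them save its last 3 bases.

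Syvn1 encodes HRD1, the ubiquitin ligase of the same complex. In the genome it spans chr19:6046576-6053712, plus strand, and its nearest NF-Y-ChIP summit was 195 kb away. Its promoter nonetheless held 2 CCAAT boxes, at −69 and −44, and the second was the first part of an ERSE. The H3K4me3-ChIP fold enrichment of 46.6 was the same as at Sel1l at this precision. Syvn1 and Sel1l, partners in 1 complex, thus differed in whether an NF-Y-ChIP peak was called. The absence of a peak says only that none passed the threshold at this depth, which the lists do not give.

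Edem1 encodes a mannosidase-like lectin that directs misfolded glycoproteins to ERAD. The gene spans chr6:108828641-108859356, plus strand. The promoter held 1 CCAAT box, at −139, and 4 GC boxes (GGGCGG on either strand), the most among the 10 genes. The nearest NF-Y-ChIP summit was 4249 kb away. The H3K4me3-ChIP fold enrichment was 62.7, close to the 63.2 of Herpud1, which did have an NF-Y-ChIP peak.

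Derl1 and Derl2 encode derlins, multi-pass membrane proteins through which ERAD substrates leave the ER. Derl1 spans chr15:57869502-57892448, minus strand, with 1 box at −214 and the nearest NF-Y-ChIP summit 15175 kb away. Its H3K4me3-ChIP fold enrichment was 39.9. Derl2 spans chr11:71007164-71019841, minus strand. Its NF-Y-ChIP peak, chr11:71019223-71019675, had a fold enrichment of 13.2 and ranked 66 of 733, and at 453 bp it was the widest of the 6, against a median width of 224 bp in the whole list. The promoter window held 5 boxes, at −223, −172, −91, −59 and −30, and a further box lay at −257. All of them read ATTGG on the strand of Derl2. The H3K4me3-ChIP fold enrichment was 76.1. The paralogs therefore differed in both lists and in the number of boxes.

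The Derl2 peak lies near starts of a second gene. The summit lay at −239 from the principal start of Derl2. It was at −69 from a start of Mis12, which encodes a kinetochore protein and is transcribed in the opposite direction. Another transcript of Derl2 starts at −538, so the summit is inside the annotated gene. By the nearest start the peak belongs to Mis12, and then 5 of the 10 genes have an NF-Y-ChIP peak of their own, a count chosen after the data were seen. The ChIP does not show which of the genes a bound site serves.

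Sec61b encodes the β subunit of the Sec61 channel, through which proteins enter the ER. In the genome it spans chr4:47474658-47483242, plus strand. The promoter window held 0 CCAAT boxes and 1 GC box. The nearest NF-Y-ChIP summit was 121 kb away. Its H3K4me3-ChIP fold enrichment was 57.5. Sec61b was the only one of the 10 genes whose strongest H3K4me3-ChIP summit lay upstream of its start, at −497. Alg2, a mannosyltransferase gene, starts at −325 on the opposite strand, and the summit lay on its side of that start. With Tbccd1 at Dnajb11 and Mis12 at Derl2, 3 of the 10 genes had an opposite-strand protein-coding start within 1 kb upstream, against 13.9% of marked protein-coding genes. Dnajb11 and Derl2 of these 3 had an NF-Y-ChIP peak, and among the marked genes with such a neighbour 8.18% had a summit within 1 kb.

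The 6 NF-Y-ChIP peaks had a median fold enrichment of 9.24, against 6.75 for all 733 peaks, and 5 of the 6 were above the latter. The values ran from 3.94 at Dnajc3 to 16.2 at Dnajb11, at ranks from 690 to 39. Measured from the principal starts, the summits had a median position of −95.5 bp and a range from −239 to 162 bp. At 3 of the genes, Dnajb9, Herpud1 and Sel1l, the summit was 95 or 96 bp upstream of the nearest GENCODE start of the gene. This depends on the annotation. From the RefSeq starts, the summit was at −87 in Herpud1 and at −107 in Dnajc3. All 6 summits lay inside an H3K4me3-ChIP peak, against 81.2% of all NF-Y-ChIP summits. The strongest H3K4me3-ChIP summit was downstream of the start in 9 of the 10 genes, between 74 and 779 bp, against 80.2% of marked protein-coding genes.

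**Figure D2:**
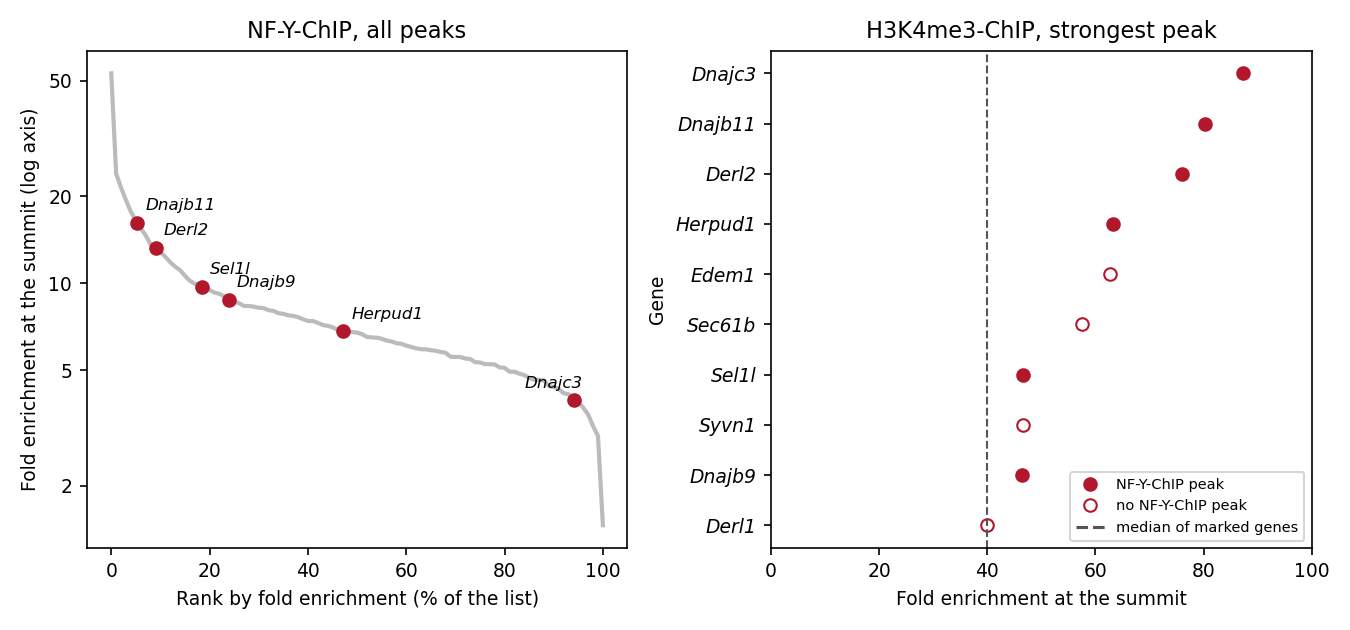
Left, fold enrichment at the summit (log axis) against rank in percent of the NF-Y-ChIP list, with all 733 peaks as the grey line and the peaks of the 6 genes as red points, from 16.2 at Dnajb11 to 3.94 at Dnajc3. Right, fold enrichment of the strongest H3K4me3-ChIP peak of each of the 10 genes, filled where the gene has an NF-Y-ChIP peak and open where it has none; the groups overlap, and all points lie at or above the median of marked protein-coding genes, 39.9 (dashed line).

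The number of CCAAT boxes in the promoter windows differed among the genes. In all, 8 of the 10 genes had at least 1 box, against 38.4% of protein-coding promoters and 37.4% of the marked ones, and 6 had at least 2, against 13.4% of the promoters with H3K4me3. The genes with the most boxes all had an NF-Y-ChIP peak, namely Dnajb11 and Derl2 with 5 boxes and Sel1l with 4. Of the 3 genes with 2 boxes, Dnajc3 and Herpud1 had a peak and Syvn1 had none. Neither Edem1 nor Derl1, with 1 box each, had a peak. Of the 2 genes without a box in this window, Sec61b had no peak, and Dnajb9 had its peak at the downstream start described above.

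Over all marked protein-coding genes, the share with NF-Y-ChIP within 1 kb was higher in each class with more boxes. It was 1.33% of 8623 genes with no box, 4.98% of 3295 with 1 box and 16.1% of 1208 with 2 boxes. With 3 boxes it was 26.5% of 431 genes, with 4 boxes 43.3% of 157, and with 5 or more 69.8% of 53 genes (Wilson 95% confidence interval 56.5 to 80.5%). A peak was present at most promoters only in the class of Dnajb11 and Derl2, with 5 or more boxes. In the classes of Sel1l, with 4 boxes, and of Dnajc3, Herpud1 and Syvn1, with 2, most promoters had none. The plot of shares by box number places each gene in its class.

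**Figure D3:**
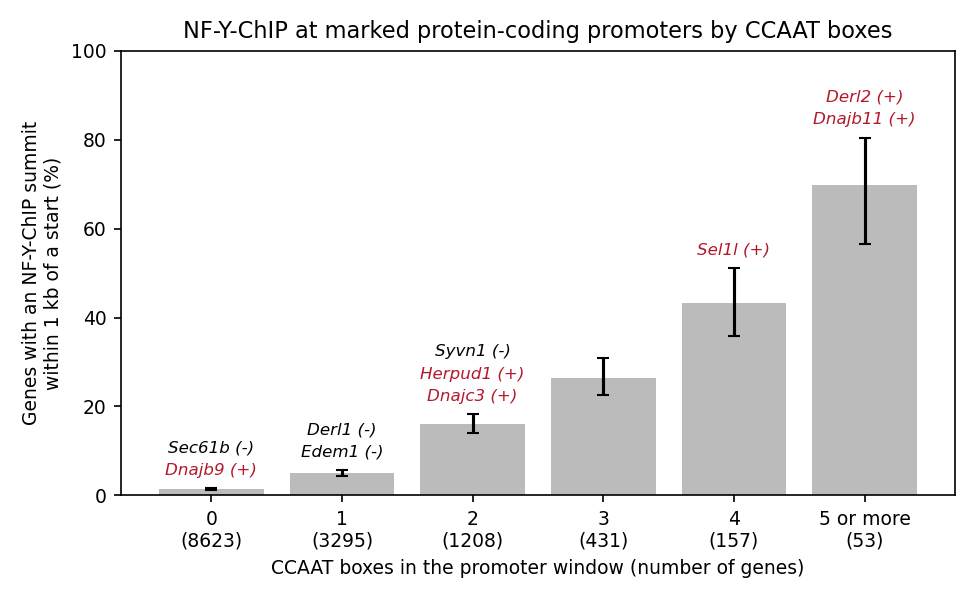
Share of marked protein-coding genes whose start had NF-Y-ChIP within 1 kb (y axis, percent) by number of CCAAT boxes in the promoter window (x axis, number of genes in parentheses); bars rise from 1.33% with no box to 69.8% with 5 or more, and error bars are Wilson 95% confidence intervals. The 10 genes are written above their class, with (+) and red letters for an NF-Y-ChIP peak and (-) and black letters for none.

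The arrangement of the boxes also differed. The 10 windows held 22 boxes, all of which began upstream of the start, and 17 of them read ATTGG on the strand of the gene. Over all marked promoters, 7314 of 7915 boxes began upstream and 3970 read ATTGG. Dnajb11 and Derl2 held 10 of the 17. Neighbouring boxes began between 25 bp (Syvn1) and 110 bp (Dnajb11) apart. Spacings of 29 to 43 bp, a range picked after the values were seen, were found at Dnajb11, Herpud1, Sel1l and Derl2. Wider ones were found at Dnajb11 (110 bp), Sel1l (58 and 72 bp), Derl2 (51 and 81 bp) and Dnajc3 (60 bp). Spacings over all marked promoters are not given, so no shared arrangement is claimed. The box closest to the summit was centred 4 to 37 bp away in the 6 peaks. The map of boxes shows the arrangement.

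**Figure D4:**
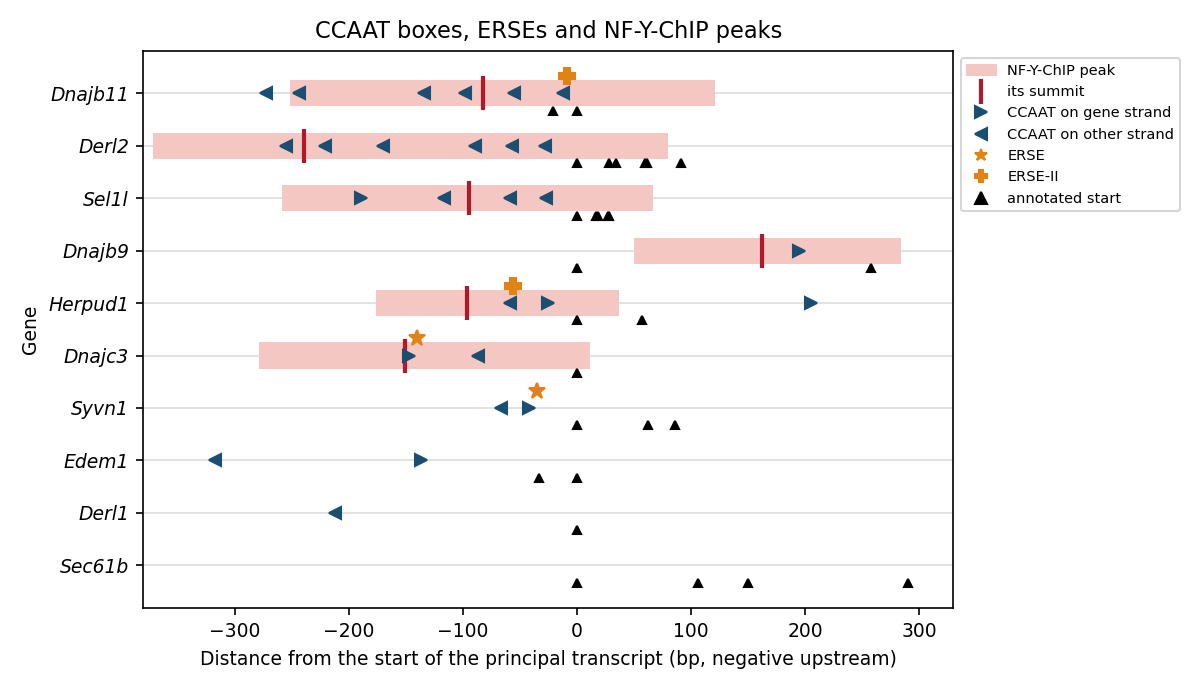
CCAAT boxes (triangles, pointing right on the strand of the gene and left on the other), ERSE (star), ERSE-II (plus sign), annotated starts (black triangles below the line) and NF-Y-ChIP peaks (pink bars, summit in red) around the start of the principal transcript (x axis, bp), 1 gene per row. Dnajb11 and Derl2 have rows of left-pointing boxes under the peak, Syvn1 has an ERSE and no peak, and the summit of the Dnajb9 peak lies between its 2 starts.

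The ERSE was searched as CCAAT, 9 bases of any kind and CCACG, on both strands. It was present in the promoters of Dnajc3 and Syvn1, and in 27 of 21951 protein-coding promoters (0.123%; 0.109% of marked ones). Without the last G it was also present in Herpud1 and Derl2, and in 0.405% of protein-coding promoters. Dnajc3 had an NF-Y-ChIP peak with its summit beside the ERSE, and Syvn1 had none. The ERSE-II, searched as ATTGG, 1 base of any kind and CCACG, was present in Dnajb11 and Herpud1, and in 0.0638% of protein-coding promoters (0.0799% of marked ones). Both genes had a peak, with the summit at −82 in Dnajb11 and at −96 in Herpud1, outside the ERSE-II itself. Each of these elements contains a CCAAT box and is counted among the boxes above. Either element was present in 4 of the 10 windows and in 41 protein-coding promoters (0.187%). The core of another unfolded protein response element, TGACGTGG, was found in 0 of the 10 windows and in 0.720% of protein-coding promoters (0.922% of marked ones). A GC box was present in 6 of the 10 windows, in 45.4% of protein-coding promoters and in 65.0% of marked ones. A match describes the reference sequence and does not show that ATF6 or XBP1 was bound.

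The other genes of the pathway were examined with the same rule. A list of 49 further genes covered other J-proteins of the ER, ubiquitin ligases and their partners, lectins and mannosidases, retrotranslocation factors and the translocon. An NF-Y-ChIP peak was present at 8 of them (16.3%, Wilson 95% confidence interval 8.51 to 29.0%), against 3.69% of all protein-coding genes and 5.60% of those with H3K4me3 by the rule. All 49 were marked by H3K4me3, with a median fold enrichment of 49.0 against 60.1 for the 10 genes. At least 2 boxes were present in 10 of the 49 promoters, and 1 promoter, that of Derl3, held an ERSE.

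The split into listed and other genes was made with earlier results of these data known. Among J-proteins, all 3 listed genes but only 1 of 6 others had an NF-Y-ChIP peak by the rule. That gene was Dnajb14, with a peak of 7.10-fold at −3248 from its start and at −53 from a start of Gm43403. Among the ubiquitin ligases and partners, Rnf5, a membrane-bound ligase, was the only 1 of 12 others with a peak (7.77-fold, summit at −205, 4 boxes). Os9, a lectin that binds trimmed glycans, was the only 1 of 5 in its group (5.12-fold, summit at −200, 4 boxes).

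Of 10 other genes of retrotranslocation, 3 had a peak. Vcp, the ATPase p97 that pulls substrates out of the membrane, had a peak of 7.65-fold with the summit at −66 and 5 boxes. Derl3, the third derlin, had a peak of 7.30-fold with the summit at −164, 4 boxes and an ERSE, while its H3K4me3-ChIP fold enrichment was only 8.61. Derl2 and Derl3 thus had an NF-Y-ChIP peak and Derl1 had none. Ufd1, a cofactor of p97, had a peak of 7.41-fold, whose nearest start was that of the DNA replication gene Cdc45. In the translocon group, 2 of 16 other genes had a peak, Spcs2 and Sec11a, both subunits of the signal peptidase. Spcs2 had the strongest peak of the whole pathway, 18.2-fold at rank 27, with the summit 5 bp downstream of its start and 0 boxes in its window but 1 box within 50 bp of the summit. Sec11a had a peak of 5.56-fold with the summit at −56.

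**Figure D5:**
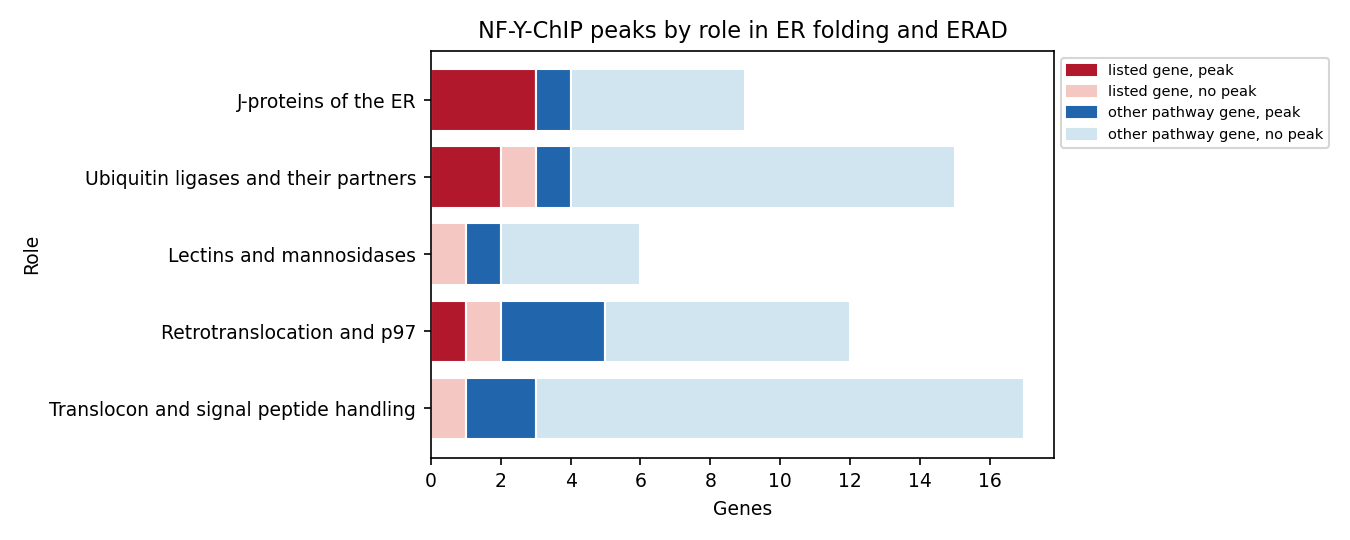
Number of genes (x axis) by role (y axis) for the 10 listed genes (red with an NF-Y-ChIP peak, pink without) and the 49 other pathway genes (dark blue with a peak, light blue without). All 3 listed J-protein genes have a peak, and most other pathway genes in every role have none. The listed genes were chosen with earlier results of these data known.

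Lists of related ER genes were counted in the same way. Of 15 ER chaperones and disulfide isomerases, 5 had an NF-Y-ChIP peak by the rule (33.3%, Wilson 95% confidence interval 15.2 to 58.3%). Of 14 sensors and factors of the unfolded protein response, 3 had one (21.4%, interval 7.57 to 47.6%). With a summit within 1 kb of a start, the shares were 33.3% and 14.3%, against 14.3% of the 49 other pathway genes and 5.03% of marked protein-coding genes. By the rule, the intervals of the chaperone list and the unfolded protein response list overlapped that of the 10 genes (31.3 to 83.2%). That of the 49 other pathway genes (8.51 to 29.0%) did not. The 10 genes were chosen with earlier results of these data known, and no difference between the lists was tested.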

How the data were processed

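The submitters' processing notes name Bowtie2 2.2.8 and MACS2 2.1.2; the authors aligned reads to mm10 (GRCm38) and called peaks at p < 0.001 (NF-Y-ChIP) and q < 0.05 (H3K4me3-ChIP). The deposited fold enrichment is a ratio to local background. The deposited −log10 values are of p- and q-values, and the deposited score is 10 times 1 of these, rounded down. The input was the negative control of the ChIP; whether MACS2 was run against it is not given in the sources used here. The H3K4me3-ChIP list used here is shorter than the set of regions the study describes. Read depth is unknown, and values were used as deposited. Each list was tied to its antibody by the statistic its score follows.

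Genes and starts were those of GENCODE M21. The principal transcript had the best APPRIS tag, then transcript support level, then length. Sequences were read from GRCm38.p6 (RefSeq). RefSeq promoter entries matched 9 of the 10 genes, all but Derl1. Of the other pathway genes, those with an NF-Y-ChIP peak are named with values. So are genes that start within 1 kb of a summit of the 10 genes. By the rule, genes of the related lists are named where the promoter holds an ERSE. Outside the rule, Alg2, Cdc45, Gm43403, Hyou1 and Manf were added after the values were seen. The genes and lists were chosen with earlier results of these data known. Alternatives covered thresholds, the gene rule, window, start and motif. Functions were tested on simulated data (1000 of 1000 right for each of rule, distance and motif). Python 3.11.15, NumPy 2.4.6, SciPy 1.17.1, pysam 0.24.0 and matplotlib 3.10.9 were used. Part of the list of cortical genes behind the tissue check is not reported here.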

Additional observations from a re-analysis of the deposited data

How the results depend on the processing

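The count of 6 genes with an NF-Y-ChIP peak became 5 with the stronger 50% of peaks, which left out Dnajc3, and 5 with each peak given to the gene of the nearest start. It was 6 under the other 5 alternatives. The number of genes with an ERSE was 1 in a window from 100 bases before the start, which left out Dnajc3, and 4 when the last G was not required, which added Herpud1 and Derl2. This looser form was present in 0.405% of protein-coding promoters. The share of protein-coding genes with an NF-Y-ChIP peak was 1.94% with the stronger 50% of peaks, 3.17% with the summit within 1 kb of a start, 1.88% over all annotated genes and 5.69% over those with H3K4me3 within 1 kb of a start. Genes with a CCAAT box numbered 6 to 9 over the windows and starts tried. No paired analysis was possible because each antibody has 1 library. Peaks under the thresholds are not in the lists, so a gene without a peak may still be bound.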

Other observations

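The ERSE was followed through the lists of ER genes as a description. Over the 10 genes, the 49 other pathway genes and both related lists, 9 genes held an ERSE and 3 of these had an NF-Y-ChIP peak, Dnajc3 (3.94-fold), Derl3 (7.30-fold) and Hsp90b1 (8.24-fold, 2 ERSEs and 5 boxes). Syvn1, Calr, Canx, Pdia6, Creld2 and Ero1lb held an ERSE and had no peak, with 1 to 3 boxes each. ERSE-II was present in 4 genes, of which Dnajb11 and Herpud1 had a peak, and Hyou1 and Manf, named after their values were seen, had none. Of all 11 marked promoters with an ERSE-II, these 4 included, 5 had NF-Y-ChIP within 1 kb (45.5%). Over all marked protein-coding promoters, 5 of 15 with an ERSE had NF-Y-ChIP within 1 kb of the gene's start (33.3%, Wilson 95% confidence interval 15.2 to 58.3%). The 9 ERSE genes above are among these 15, and the 3 with a peak among the 5. The share is therefore no independent background for them. Among promoters with at least 2 boxes, 5 of 12 with an ERSE did (41.7%, interval 19.3 to 68.0%), and 22.2% of 1837 without (interval 20.4 to 24.2%). These intervals overlapped.

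Over all 733 NF-Y-ChIP peaks, the median fold enrichment was 5.33 for 48 peaks without a box, 6.41 with 1 box, 6.84 with 2, 7.03 with 3, 6.93 with 4 and 8.23 for 42 peaks with 5 or more. The peaks of Dnajb9 (1 box), Sel1l (4 boxes), Dnajb11 (5 boxes) and Derl2 (6 boxes) were above the median of their class, and those of Dnajc3 and Herpud1, with 2 boxes each, were below it.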
